A study of Mus musculus with 27 samples.

Results

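Pou5f1, Sox2, Utf1, Zfp281, Fgf5, Otx2, Pou3f1 and Pim2 are 8 genes that mark the pluripotent state of mouse embryonic stem cells (mESCs) or its exit towards the primed epiblast. They were chosen by name, with earlier results of these data known, and all 8 were found among the 25209 genes of the deposited tables. RNA was sequenced in 27 libraries of the mESC line V6.5, from wild-type (WT) cells and from KO4 and KO8, 2 clones in which Zfp512b had been disrupted. Each genotype had 3 libraries in naive cells (Day 0) and 2 in primed cells (Day 2), in cultures with cardiomyocytes (CM, Day 7.5) and in cultures with neural progenitors (NPC, Day 10). Naive cells grew in medium with LIF, a MEK inhibitor and a GSK3 inhibitor (2iLIF). Primed cells were the same cells moved to serum medium with LIF. CM cultures came from hanging-drop embryoid bodies with vitamin C and NPC cultures from embryoid bodies exposed to retinoic acid. In both clones a cassette of transcription terminators with mCherry or puromycin resistance had been inserted by CRISPR-Cas9 after exon 3 of Zfp512b. The WT cells had not gone through the editing and selection, each clone is a single line, and the study picked these clones for the smallest gain in growth over WT, so an effect of the lost gene and a property of a clone cannot be told apart.

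Pluripotency is a chain of states. In naive cells POU5F1 (also called OCT4) and SOX2 bind DNA together and hold the stem cell program in place. As cells leave this state, OTX2 and ZFP281 help to move the program to the formative epiblast, where Fgf5, Pou3f1 and Utf1 are switched on. Neural progenitors keep Sox2 and can keep Pou3f1, whereas Pou5f1 is normally silenced on differentiation.

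The deposited tables give, for each clone and stage, a base mean per gene, which is the mean normalized count over the WT libraries and the libraries of that clone. The tables of the 2 clones share their WT libraries. Because a base mean is a sum of whole read counts, each multiplied by a known step per library, the counts of single libraries could be worked back where only 1 set of whole numbers gave both base means of a stage. This was possible for 10 of the 32 combinations of a gene and a stage, 2 in naive cells, 2 in primed cells, 5 in NPC cultures and 1 in CM cultures. For the other combinations, at higher levels, the report gives the base means, the difference between the clones and the limits that the base means set on each group. The difference rests on the mean ratio of the WT steps between the 2 tables of a stage. Depth was about 34200000 to 39700000 reads on genes per library in naive cells and 15100000 to 19300000 at the other stages. The targeted gene Zfp512b followed the labels where its counts were found. In primed cells it had 929 and 977 normalized counts in the WT libraries, 191 and 219 in KO4, and 184 and 154 in KO8. In CM cultures it had 1118 and 1060 in WT, 184 and 209 in KO4, and 155 and 173 in KO8. In naive cells and NPC cultures its counts could not be told apart by library.

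The members lie on different chromosomes. In the mm9 build Pou5f1 spans chr17:35642982-35647721, Sox2 chr3:34548927-34551383, Utf1 chr7:147129688-147131011, Zfp281 chr1:138521478-138526630 and Fgf5 chr5:98683203-98706049, all on the plus strand. Otx2 spans chr14:49277354-49287319 on the minus strand, Pou3f1 chr4:124334896-124337899 and Pim2 chrX:7455388-7460558 on the plus strand. Sox2 lies inside the noncoding gene Sox2ot on the same strand, and Pou5f1 has near-identical processed copies in the mouse genome, so reads of these 2 genes may have been shared out or dropped by the counting.

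POU factors such as POU5F1 and POU3F1 bind the octamer ATGCAAAT. The RefSeq promoter sequences (GRCm38.p6, 250 bases before to 50 after a start) hold 7 of the 8 members, and they were searched on both strands for the octamer and for its 7-base core TTTGCAT, which lies within the octamer's reverse strand. The core occurred in 4.63% of the 32851 promoters and, among the members, in Pim2 and Sox2. The full octamer occurred in 1.74% of promoters and, among the members, in Pim2 alone, at 2 places. The promoters of Pim2 and Sox2 are printed as the 2 among the members that hold a match. The first is chrX:7878056-7878355 and the second chr3:34649745-34650044, both on the plus strand of GRCm38.p6, 5′ to 3′, with each match of the core in capitals.
Pim2: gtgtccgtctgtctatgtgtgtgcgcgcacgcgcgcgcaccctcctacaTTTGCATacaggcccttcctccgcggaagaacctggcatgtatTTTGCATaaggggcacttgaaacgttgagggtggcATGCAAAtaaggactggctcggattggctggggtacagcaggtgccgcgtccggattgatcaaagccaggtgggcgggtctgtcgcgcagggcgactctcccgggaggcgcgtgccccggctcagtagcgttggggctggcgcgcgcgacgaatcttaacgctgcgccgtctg
Sox2: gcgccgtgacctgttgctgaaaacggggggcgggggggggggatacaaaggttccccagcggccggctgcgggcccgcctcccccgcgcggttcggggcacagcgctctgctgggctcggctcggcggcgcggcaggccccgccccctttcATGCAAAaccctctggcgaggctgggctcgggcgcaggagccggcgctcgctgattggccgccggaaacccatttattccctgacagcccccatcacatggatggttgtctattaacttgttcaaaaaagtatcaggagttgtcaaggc
In Pim2 the 3 matches began 201, 158 and 123 bases before the start, the last of them on the other strand, and 3 or more matches were found in 0.0274% of promoters. The match in Sox2 began 99 bases before the start. A match is a run of letters and does not show that a factor was bound.

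To see when each gene was on, base means were set on the scale of the naive tables by the median ratio of 8922 genes with at least 100 in all tables. These levels average WT and KO libraries, so they are a description without a test, and ratios between stages rest on this 1 scaling. Pou5f1, the core POU factor, stood at 31320 in naive and 45239 in primed cells, at 916 in NPC and at 3575 in CM cultures. Sox2, its partner, stood at 18288, 25023, 2270 and 5696 in the same order. Both were therefore high before differentiation, with a primed level 49.4 times that of NPC cultures for Pou5f1 and 11.0 times for Sox2. Zfp281, a zinc finger factor, varied least, from 3185 in NPC cultures to 7706 in primed cells.

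Genes linked to the formative state rose from naive to primed cells by very different factors. Utf1, a chromatin-bound factor of undifferentiated cells, had 1994 in naive and 21691 in primed cells, 10.9 times as much. Pim2, a serine/threonine kinase, had 603 and 5120, 8.49 times as much. Pou3f1, a POU factor of the primed epiblast and of neural cells, had 60.1 and 3519, 58.5 times as much. Otx2, a homeobox factor, already stood at 1303 in naive cells and reached 2049 in primed cells, 1.57 times as much. Fgf5, the growth factor that classically marks the primed epiblast, was close to absent in naive cells at 0.419 and reached only 82.6 in primed cells. Naive pluripotency genes were still expressed in the primed cells. Highest there among 15 such genes were Esrrb, Zfp42, Nanog and Klf2. They had 18173, 15417, 11262 and 8674 in primed cells, and 28080, 13774.5, 28793 and 12713 in naive cells. Primed is therefore used here as the label of the stage.

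After priming the paths divided. Otx2 was nearly lost in NPC cultures, at 5.09, and stood at 3938 in CM cultures. Fgf5 reached its highest level in CM cultures, at 1506, and Pou3f1 had 2006 in NPC and 1041 in CM cultures. Utf1 and Pim2 had 438 and 392 in NPC cultures, and 1517 and 3142 in CM cultures. The plot of levels over the stages shows that the 2 tables of a stage lay close together in naive and primed cells, and that in CM cultures the table with KO4 lay above the table with KO8 for all 8 genes.

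**Figure D1:**
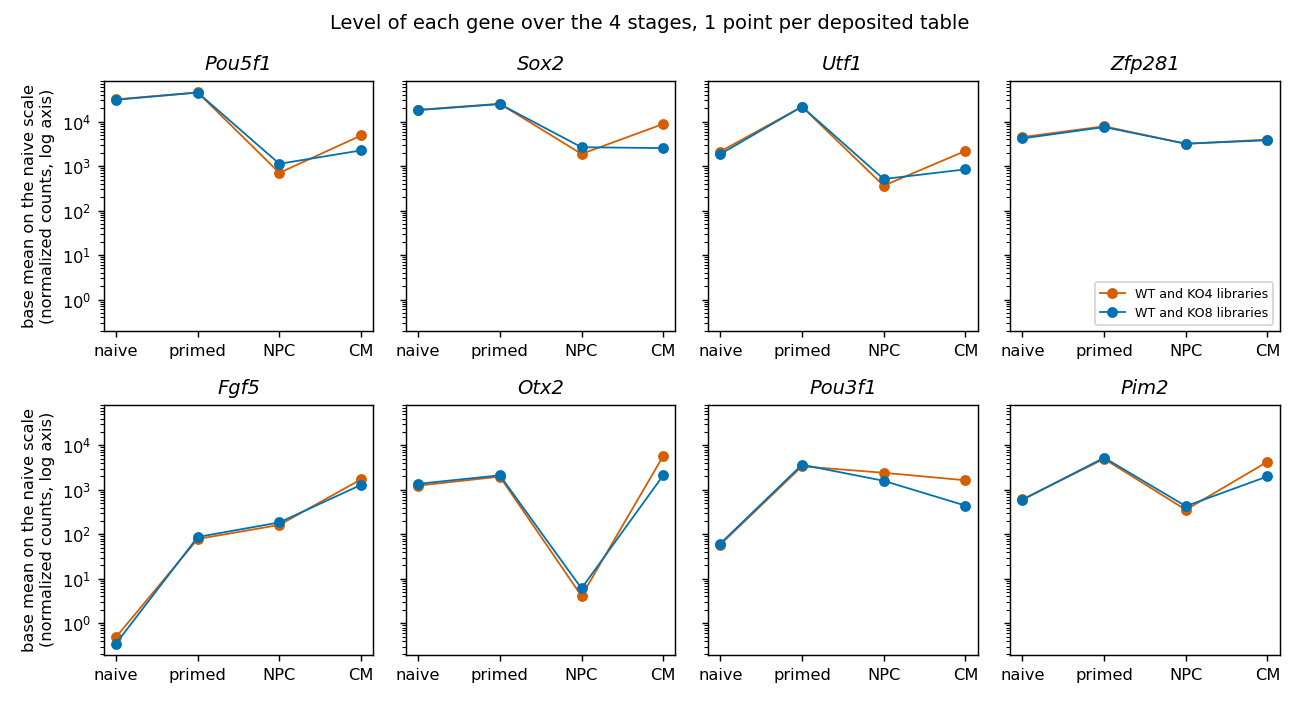
Base mean of each gene on the naive scale (normalized counts, log axis) at the 4 stages, 1 point for the table with KO4 and 1 for the table with KO8, which share their WT libraries. Pou5f1 and Sox2 peak in primed cells, Otx2 falls to 5.09 in NPC cultures, and the 2 tables part in CM cultures for most genes.

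Levels of different genes can be compared per kilobase of exon. In the naive table with KO4, base means per kilobase were 14034 for Pou5f1, 7501 for Sox2, 1732 for Utf1, 909 for Zfp281, 366 for Otx2, 218 for Pim2, 19.5 for Pou3f1 and 0.195 for Fgf5. In primed cells Utf1 moved to the second place, with 7949 per kilobase beside 9052 for Pou5f1 and 4617 for Sox2. The order of the 8 genes was the same in the tables of both clones in naive and in primed cells. In NPC cultures it was not: Pou3f1 led in the table with KO4 at 390 per kilobase, beside 371 for Sox2, whereas Sox2 led in the table with KO8 at 546, with Pou3f1 at 267. In CM cultures Sox2 led in both tables, at 1755 and 519 per kilobase. Against all genes above 0 in the same table with KO4, Pou5f1 stood at the 99.5th percentile in naive cells, the 99.7th in primed cells, the 55.1st in NPC and the 89.8th in CM cultures.

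Over the 8 tables, log2 levels of Pou5f1 and Sox2 had a Pearson r of 0.982, those of Utf1 and Zfp281 0.985, and those of Fgf5 and Pou3f1 0.711, while Pou5f1 and Fgf5 had -0.585. The tables come in pairs that share WT libraries and stage, so r largely repeats the order of the 4 stages. Of 13761 genes, the most alike in pattern were Pipox for Pou5f1 (r = 0.999), Acot7 for Sox2 (0.996), Denr for Utf1 (0.999), Ube2d3 for Zfp281 (0.998), Cd276 for Fgf5 (0.998), Azin1 for Otx2 (0.994), Ubox5 for Pou3f1 (0.993) and Csrnp1 for Pim2 (0.996), each over 8 tables.

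Where counts were found at 2 stages, the WT libraries gave a test of the change between stages. Fgf5 had 0 reads in all 3 naive WT libraries and 50 and 31 reads in the primed WT libraries. Against the 3 reads that a count of 0 allows over the naive group, its mean scaled level in primed cells was 88.6 times this floor. That ratio leaves out the spread of the primed libraries, at 106 and 68.8. Among genes with reads in 1 naive library, 556 had 2 reads and 440 had 1. Whether both mates of a read pair were counted was not tested, and if so the floor would be higher and the ratio smaller. The log2 change was 6.43 (limma, adjusted p = 1.52e-05), and 53.3% of the 2691 genes tested in that comparison were called. Fgf5 passed the filter, a mean of at least 10, only through its primed libraries. With 0 reads in naive WT the test could only give a rise, and its size rests on the added count of 1. The size depends on the scaling between stages. With the libraries scaled to the total of the recovered genes, the ratio to the floor was 34.6, and the change was still called (limma, adjusted p = 4.67e-05). The median log2 change over all genes tested moved from 0.80 to -0.66, with 1174 genes called higher and 259 lower in the first scaling and 440 and 948 in the second. No gene above a base mean of 100 in naive cells had counts, while primed counts were found up to about 1000. The tested genes thus lean towards genes that rise. Their total is therefore a biased scale, and the 53.3% is not the share of all genes. From primed cells to NPC cultures Fgf5 rose by 1.10 ± 0.29 on the log2 scale (limma, adjusted p = 0.0157), with a call that was lost without either NPC library (1.19 and 1.02, adjusted p = 0.115 and 0.147) and without 1 primed library (0.80, adjusted p = 0.0505). Otx2 fell from 1094 and 1140 reads in primed WT libraries to 4 and 4 in NPC ones, a log2 change of -8.04 ± 0.21 (limma, adjusted p = 3.4e-05). Otx2 also passed the filter only through its primed libraries, so a fall was the only outcome this test could give. All genes tested there were called at 74.5%, so 2 of 2 members called is near what most genes did. From primed cells to CM cultures, where 69.7% of genes were called, no member had counts at both stages. Naive libraries were deeper than the others, as given above, and naive counts were found only for genes of low level.

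In naive cells the clones and WT could be compared for Pou3f1 and, at a few reads, for Fgf5. Pou3f1 had 55.5, 50.0 and 73.2 normalized counts in WT libraries, 64.5, 63.0 and 45.9 in KO4, and 59.4, 68.4 and 63.0 in KO8. The 3 groups overlapped. The log2 difference from WT was -0.04 ± 0.22 in KO4 and 0.11 ± 0.21 in KO8 (limma, adjusted p = 0.917 and 0.765), where 20.7% and 18.9% of the genes tested were called. KO8 and KO4 differed by 0.15 ± 0.21 (limma, adjusted p = 0.757), against 8.22% of genes called. Fgf5 had no read in the WT libraries, 3 reads in 1 KO4 library and 2 reads in 1 KO8 library, and its level was too low to be tested at this depth.

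For the members with high naive levels, only the difference between the clones was fixed by the base means. KO4 stood above KO8 by 26.5% of the mean level for Utf1, 14.0% for Zfp281, 4.74% for Pim2, 4.36% for Pou5f1 and 3.13% for Sox2, while for Otx2 the difference was -18.5%. The median absolute difference over 13737 genes with a mean level of at least 10 was 8.13%, and Utf1 stood at the 86.5th percentile of them. These differences have no replicate error, since the base means hold no spread. Of the other lists, few genes were low enough to be tested in naive cells. Sox3, a SoxB1 factor and the 1 formative gene tested, rose by 1.62 ± 0.32 in KO4 and differed by 0.43 ± 0.37 in KO8 (limma, adjusted p = 0.000250 and 0.444). Pou3f2, a neural POU factor close to Pou3f1, rose in both clones, by 1.28 ± 0.30 and 1.36 ± 0.30 (limma, adjusted p = 0.00182 and 0.00104). No naive pluripotency or core partner gene could be tested.

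In primed cells Otx2 was lower in both clones. It had 1040 and 1138 normalized counts in WT libraries, 699 and 684 in KO4, and 791 and 839 in KO8. All KO libraries lay below both WT libraries. The fall was -0.65 ± 0.08 on the log2 scale in KO4 (limma, adjusted p = 8.1e-09) and -0.42 ± 0.07 in KO8 (limma, adjusted p = 2.02e-06), where 19.6% and 16.3% of genes were called. Each call was kept with any 1 library left out, but both were lost when the variance was not allowed to follow the level (adjusted p = 0.0831 and 0.159), a setting that left few calls for any gene in primed cells. KO8 stood above KO4 by 0.24 ± 0.08 (limma, adjusted p = 0.0954), which did not pass, against 3.29% of genes called.

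Fgf5 was at low level in primed cells, with 47.5 and 30.9 normalized counts in WT, 25.4 and 36.9 in KO4, and 41.3 and 36.5 in KO8. The groups overlapped, and the log2 difference from WT was -0.31 ± 0.34 in KO4 and 0.02 ± 0.32 in KO8 (limma, adjusted p = 0.564 and 0.98). With 1 library left out these ranged from -0.62 to -0.012 and from -0.29 to 0.32. Whether its response to the knockout differed between primed and naive cells could not be told at this depth: the difference of the effects was -0.97 ± 0.93 for KO4 and -0.53 ± 1.08 for KO8 (limma, adjusted p = 0.643 and 0.886), where 2.67% and 1.09% of genes were called.

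The other 6 members were too high in primed cells for counts per library. KO4 minus KO8 was 1.61% of the mean level for Pou5f1, 3.33% for Sox2, 0.0754% for Utf1, 8.34% for Zfp281, -16.5% for Pou3f1 and -11.9% for Pim2, beside a median absolute difference of 7.28% over 13215 genes. For Utf1 the sign was not fixed, because the ratio of the WT steps between the 2 tables varied by 0.22%. Pou3f1, Pim2 and Zfp281 stood at the 77.6th, 68.0th and 54.9th percentile of absolute differences and the other 3 below the median, with no replicate error. Of the naive pluripotency genes, 4 of 15 could be tested in primed cells, and all 4 fell in KO4 and 3 in KO8, with medians of -0.46 and -0.50 against -0.03 over all genes in both. Tbx3, a T-box factor of the naive state, fell by 0.59 ± 0.08 and Prdm14, a repressor of FGF signaling, by 0.63 ± 0.14 in KO4 (limma, adjusted p = 3.39e-07 and 0.000519). Of the formative and primed epiblast genes, 4 of 14 were tested in KO4 and in KO8, and Lef1, a Wnt effector, was the member of that list that passed, with -1.21 ± 0.10 and -0.65 ± 0.09 (limma, adjusted p = 4.06e-13 and 1.17e-09). No core partner gene was low enough to be tested.

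Markers of other cell types were low in primed cells. The sums over the 8 neural progenitor markers with counts were 416 to 517 normalized counts in WT, 673 to 677 in KO4 and 732 to 765 in KO8, with Neurog2 at 0. Sox1 was higher in both clones, by 1.29 ± 0.17 and 0.83 ± 0.19 (limma, adjusted p = 1.92e-07 and 0.000465). All 8 cardiomyocyte markers summed to 207 to 274 in WT, 187 to 217 in KO4 and 182 to 208 in KO8. All 7 mesendoderm markers summed to 145 to 146, 134 to 138 and 171 to 175, and all 7 endoderm markers to 212 to 228, 248 to 329 and 238 to 250, in the same order. Their part in the fall of Otx2 was not tested.

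**Figure D2:**
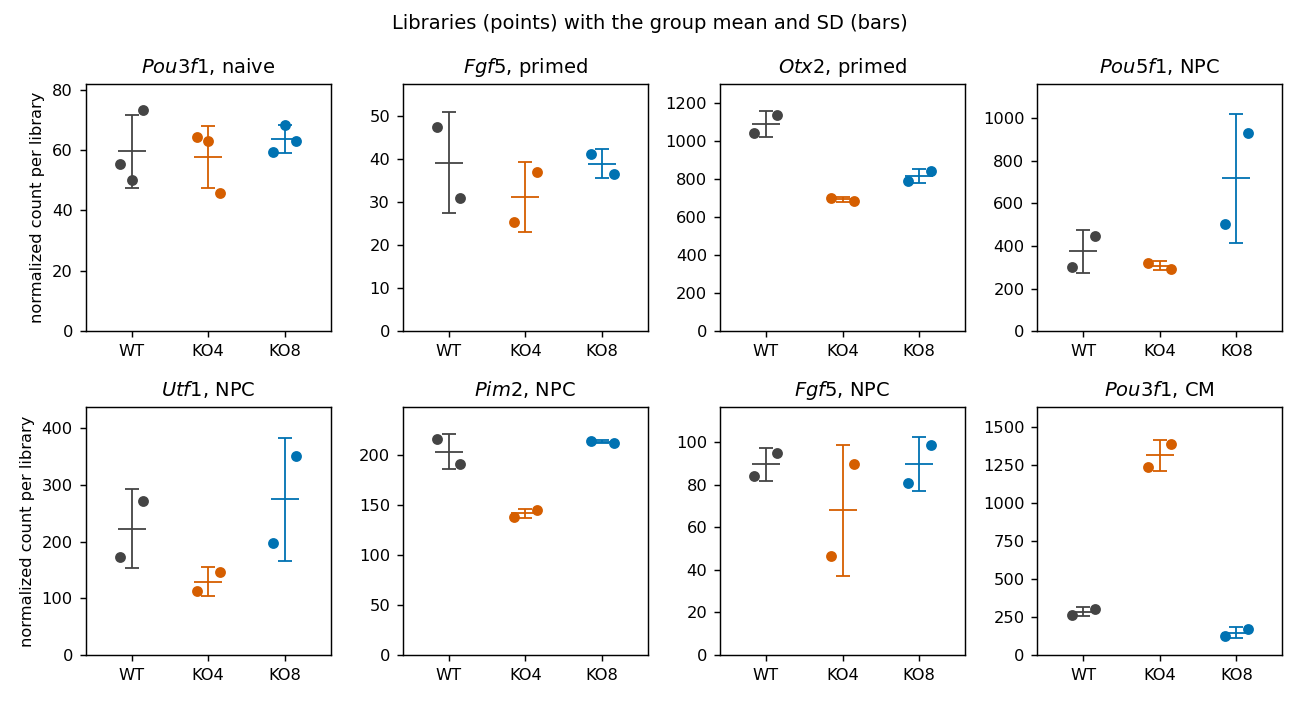
Normalized count in each library (points) with the mean and SD of the group (bars), WT, KO4 and KO8, for the 8 gene and stage combinations with counts per library and a mean of at least 10. Otx2 in primed cells and Pou3f1 in CM cultures show 3 groups that do not overlap, while Pou3f1 in naive cells and Fgf5 overlap.

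In NPC cultures counts per library were found for 5 members. Pou5f1 had 304 and 448 normalized counts in WT libraries, 322 and 294 in KO4, and 505 and 932 in KO8. Both KO8 libraries lay above WT, and 1 of them held most of the excess. Utf1 had 173 and 272 in WT, 112 and 147 in KO4, and 198 and 351 in KO8, so KO4 lay below WT and KO8 overlapped it. Pim2 had 216 and 191 in WT, 138 and 145 in KO4, and 214 and 212 in KO8. Fgf5 had 84.3 and 94.9 in WT, 46.3 and 89.7 in KO4, and 81.0 and 98.9 in KO8, with overlap. Otx2 had 4 reads in each WT library, 0 in both KO4 libraries, and 0 and 4 in KO8, too few to be tested.

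In KO4, 2 of the 4 members tested in NPC cultures passed, both lower, where 16.3% of genes were called. Utf1 fell by 0.75 ± 0.20 on the log2 scale and Pim2 by 0.52 ± 0.18 (limma, adjusted p = 0.00627 and 0.0399). Pou5f1 differed by -0.26 ± 0.15 and Fgf5 by -0.46 ± 0.27 (limma, adjusted p = 0.276 and 0.288). In KO8, 1 of 4 passed, where 9.43% of genes were called. Pou5f1 rose by 0.89 ± 0.25 (limma, adjusted p = 0.0412), while Utf1 differed by 0.28 ± 0.28, Pim2 by 0.07 ± 0.19 and Fgf5 by 0.00 ± 0.27 (limma, adjusted p = 0.616, 0.87 and 0.998). These calls rest on single libraries, and the call of Utf1, of Pim2 and of Pou5f1 was lost without the filter on low values and without a variance trend. Without the second KO8 library the rise of Pou5f1 was 0.45 (adjusted p = 0.062), without the first WT library 0.61 (adjusted p = 0.398) and without the second 1.17 (adjusted p = 0.0594). The fall of Utf1 in KO4 was -0.43 without the second WT library and -0.56 without the first KO4 library (adjusted p = 0.221 and 0.106), and that of Pim2 lost its call without either KO4 library (-0.48 and -0.55, adjusted p = 0.206 and 0.126) or the first WT library (-0.43, adjusted p = 0.203). Pou5f1 in KO4 passed without the first WT library (-0.54, adjusted p = 0.00545), and was at 0.02 without the second. Utf1 in KO8 passed without the first KO8 library (0.69, adjusted p = 0.00681) and Fgf5 in KO4 without the second KO4 library (-0.93, adjusted p = 0.0466).

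Between the clones, KO8 stood above KO4 by 1.15 ± 0.24 for Pou5f1, 1.03 ± 0.28 for Utf1, 0.59 ± 0.18 for Pim2 and 0.47 ± 0.35 for Fgf5 on the log2 scale. None of the 4 passed (limma, adjusted p = 0.0534, 0.117, 0.165 and 0.561), where 1.4% of genes were called. For the members at higher level, KO4 minus KO8 from the base means alone was -68.7% of the mean level for Sox2 and 82.0% for Pou3f1, against a median absolute difference of 10.3% over 14412 genes, at the 95.5th and 97.2nd percentile. Zfp281 differed by -1.28%. For Sox2, 7 sets of whole numbers gave both base means within the replicate spread that the search allows. In them KO8 over KO4 lay between 1.62 and 2.14, and KO8 over WT between 1.23 and 3.27. KO4 over WT lay between 0.575 and 2.02, so the direction of KO4 against WT was not fixed. For Pou3f1, 4 sets were found, with KO8 over KO4 between 0.227 and 0.521.

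By base means, KO8 also stood above KO4 in NPC cultures for 13 of 15 naive pluripotency genes and 8 of 8 core partner genes, beside 50.4% of all genes. In the test between the clones 1 of 13 naive pluripotency genes and 2 of 7 core partners passed, all higher in KO8. Against WT, 12 naive pluripotency genes were tested in KO4, where Klf5, Tfcp2l1 and Esrrb fell and none rose, and 13 in KO8, where 4 rose and none fell, with medians of -0.11 and 0.74 beside -0.02 and -0.01 over all genes. Fbxo15, a target of POU5F1 and SOX2, rose by 0.98 ± 0.21 in KO8, and Gbx2, a homeobox gene, by 1.20 ± 0.21 (limma, adjusted p = 0.0146 and 0.00509). Of 8 core partner genes 7 were tested. Dnmt3l and Lin28a fell in KO4, by 0.92 ± 0.31 and 0.54 ± 0.14, and Dppa2 rose in KO8, by 1.14 ± 0.30 (limma, adjusted p = 0.0365, 0.00546 and 0.0364). Of the formative and primed epiblast genes 10 of 14 were tested, of which 1 rose and 1 fell in KO4 and 3 rose in KO8. Foxd3, a forkhead factor of epiblast and neural crest, rose in both clones, by 2.27 ± 0.44 and 2.55 ± 0.58 (limma, adjusted p = 0.000263 and 0.0167). All calls named here for KO8 in NPC cultures were lost without a variance trend, where limma called 0 genes (1764 at an unadjusted p under 0.05), and leaving out 1 library gave 146 to 1926 calls over all genes.

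The naive pluripotency genes with counts, 13 of 15, summed to 1738 to 2405 normalized counts in WT libraries, 1725 to 1806 in KO4, and 2587 to 4086 in KO8. The sums of KO8 and WT overlapped for the 7 core partner genes with counts (1677 to 2905 and 1095 to 1842) and for the 11 formative genes with counts (1672 to 2437 and 1399 to 1687). Of the neural progenitor markers, Pax6 and Neurog2 could be tested in NPC cultures, and their sum was 216 to 289 in WT, 518 to 612 in KO4 and 373 to 688 in KO8. By base means these 2 stood higher in KO4 than in KO8, while the other 7 of 9 markers stood higher in KO8. The median of KO4 minus KO8 over the 9 was -28.0% of the mean level, and 50.4% of all genes stood higher in KO8. Of the cardiomyocyte markers, 2 of 5 tested fell in KO4, and 1 of 7 rose and 1 fell in KO8, and the sum over all 8 was 341 to 447 in WT, 242 to 243 in KO4 and 302 to 322 in KO8. Of the mesendoderm markers 6 of 7 summed to 427 to 434, 426 to 437 and 374 to 486, with Mesp1 at 0, and of the endoderm markers 3 of 7 summed to 482 to 573, 691 to 708 and 583 to 661. The endoderm sum does not show the direction of its genes, since in KO4 1 of the 3 rose and 2 fell, with a median of -1.12. It also leaves out Gata4 and Gata6, which were too high for counts and stood at 12366 and 14462 on the naive scale. In bulk RNA, fewer cells that express a gene and less RNA of it per cell cannot be told apart. The part of these cell types in the values of the members was not tested.

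**Figure D3:**
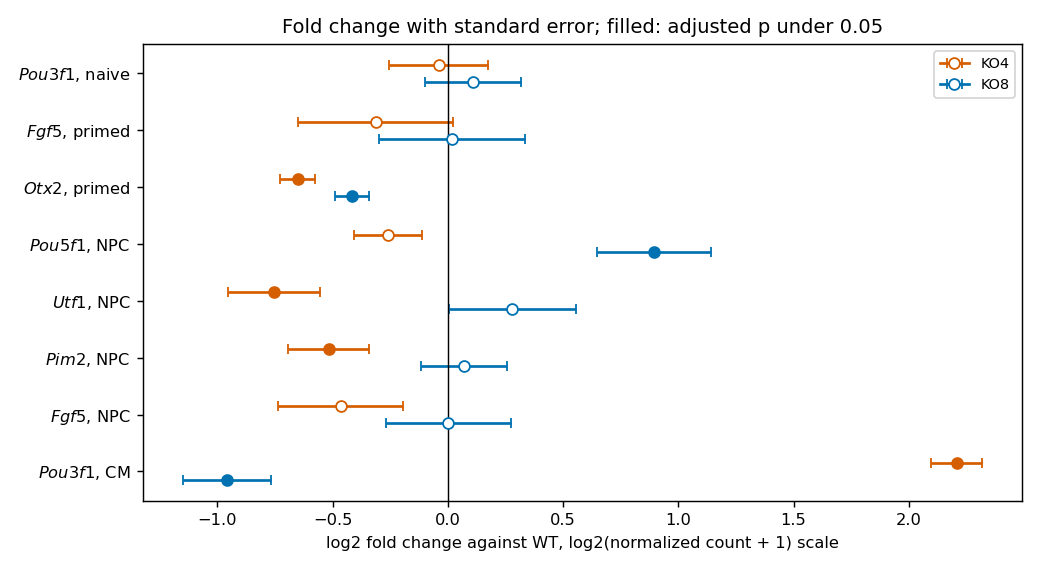
Log2 fold change of KO4 and KO8 against WT on the log2(normalized count + 1) scale, with its standard error, for the 8 tested gene and stage combinations. Filled points have an adjusted p under the threshold of 0.05: Otx2 is lower in both clones in primed cells, and Pou3f1 in CM cultures is at 2.21 in KO4 and at -0.96 in KO8.

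CM cultures showed the largest differences. Pou3f1 had 263 and 304 normalized counts in WT libraries, 1241 and 1387 in KO4, and 123 and 171 in KO8. No group overlapped another. It rose by 2.21 ± 0.11 on the log2 scale in KO4, 4.62-fold (limma, adjusted p = 1.19e-07), and fell by 0.96 ± 0.19 in KO8 (limma, adjusted p = 0.00297). KO8 stood below KO4 by 3.17 ± 0.15 (limma, adjusted p = 1.71e-06). Calls were common in CM cultures, at 52.4% of genes for KO4, 25% for KO8 and 54.6% between the clones, so a call alone sets no gene apart there. The call in KO8 was lost when the variance was not allowed to follow the level (adjusted p = 0.0678).

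The other 7 members had no accepted counts, but the base means limited their group means. For Fgf5 the search found 1 set of whole numbers, which was not accepted and is not used. Chance solutions were likely at its level, where a set could be accepted only if replicates agreed closely. Whatever the split, the KO4 mean of Sox2 was at least 2.47 times the WT mean, that of Otx2 at least 1.72 times, of Utf1 at least 1.58 times, of Pou5f1 at least 1.16 times and of Pim2 at least 1.13 times. With Pou3f1, whose limit was 2.7, this made 6 of 8 members with a KO4 mean above WT from base means alone, where 4.05% of the 14311 genes with a mean level of at least 10 met this limit. The limits follow from the table values and carry no replicate error. They rest on the same 2 base means as the difference between the clones given below, so the 2 are not separate results. For Utf1, 2 sets of whole numbers gave both base means, and KO4 over WT was 2.28 in one and 2.40 in the other, while KO8 over WT was 0.267 and 0.316. For Fgf5 and Zfp281 the limits overlapped. The plot of allowed ranges shows the KO4 range to the right of the ranges of WT and KO8 for these 6 genes.

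**Figure D4:**
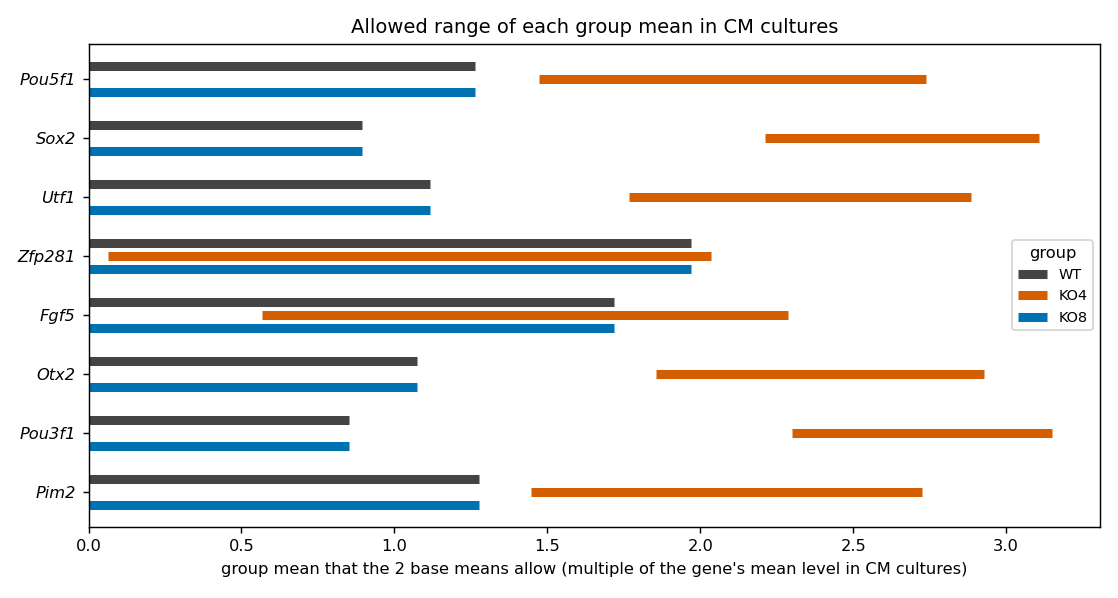
Range of each group mean that the base means of the CM tables allow, as a multiple of the gene's mean level in CM cultures, for WT, KO4 and KO8. For Pou5f1, Sox2, Utf1, Otx2, Pou3f1 and Pim2 the KO4 range lies above the other 2 ranges, and for Zfp281 and Fgf5 the ranges overlap.

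The clones differed in CM cultures in the same direction for every member. KO4 minus KO8 was 230% of the mean level for Pou3f1, 221% for Sox2, 186% for Otx2, 177% for Utf1, 148% for Pou5f1, 145% for Pim2, 57.0% for Fgf5 and 6.90% for Zfp281, beside a median absolute difference of 27.0% over all genes of that level. The first 6 stood between the 93.0th and the 97.7th percentile of all genes, Fgf5 at the 74.8th and Zfp281 at the 14.7th. For Pou5f1, Sox2, Utf1, Zfp281, Pim2 and Fgf5 the sign was opposite to that in NPC cultures, where KO8 stood above KO4. Whether the differences between these stages exceed the replicate spread was not tested, since counts per library were lacking in CM cultures for all of them.

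**Figure D5:**
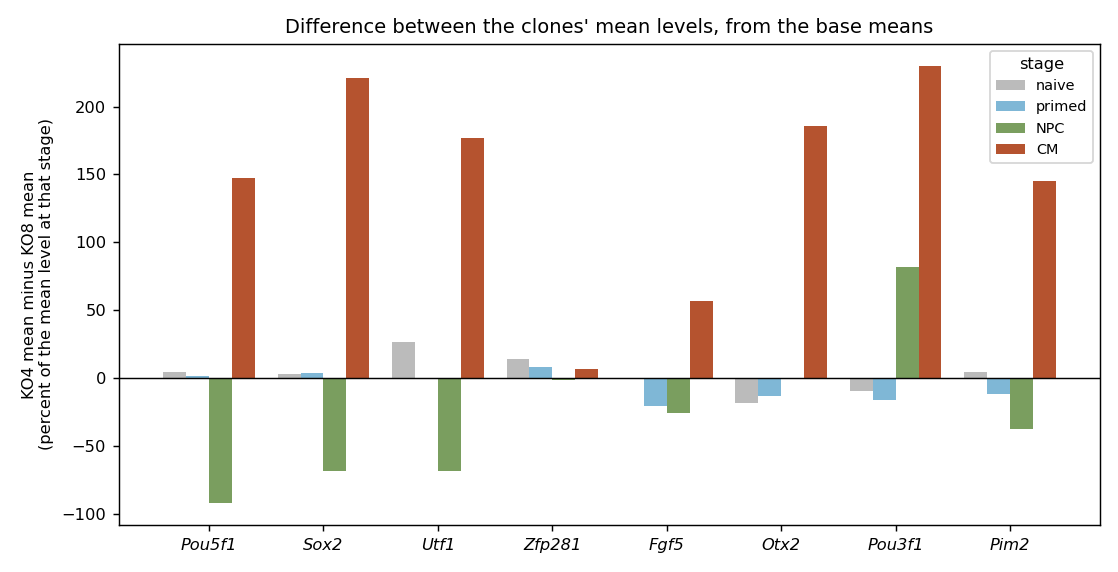
KO4 mean minus KO8 mean as a percentage of the gene's mean level at each stage, from the base means. Bars reach 230% in CM cultures and are small in naive and primed cells. Fgf5 in naive cells and Otx2 in NPC cultures, with levels under 10, have no bar.

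By base means, KO4 stood above KO8 in CM cultures for 13 of 15 naive pluripotency genes and 8 of 8 core partner genes, beside 48.9% of all genes. Of 15 naive pluripotency genes 12 were tested. In KO4 9 rose and 1 fell, with a median of 1.22, and in KO8 9 fell and none rose, with a median of -2.04, beside -0.02 and -0.01 over all genes. Zfp42, also known as Rex1, a marker of undifferentiated cells, rose by 1.81 ± 0.22 in KO4 and fell by 2.13 ± 0.27 in KO8 (limma, adjusted p = 4.7e-05 and 0.000129). Esrrb, an orphan nuclear receptor of the naive state, rose by 1.33 ± 0.19 and fell by 1.95 ± 0.19 (limma, adjusted p = 0.00015 and 2e-05). Klf4, a Krüppel-like factor, went against its list in KO4 with a fall of 1.45 ± 0.19 (limma, adjusted p = 8.54e-05). The 3 core partner genes tested, Dppa2, Dppa4 and Fgf4, rose in KO4 and fell in KO8, with medians of 1.65 and -2.39. Of 8 formative and primed epiblast genes tested, 4 rose and 3 fell in KO4, and 6 fell in KO8. Zic5 rose by 2.12 ± 0.15 in KO4 and Grhl2, an epithelial factor, fell by 1.51 ± 0.11 (limma, adjusted p = 9.02e-07 and 1.59e-06).

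Markers of other cell types moved with the clones in CM cultures. The 8 of 9 neural progenitor markers with counts summed to 150 to 214 normalized counts in WT libraries, 6575 to 6764 in KO4 and 273 to 301 in KO8, and all 6 that were tested rose in KO4, with a median of 2.58. Sox1 and Pax6, which define early neural tissue, rose by 6.63 ± 0.20 and 5.52 ± 0.12 (limma, adjusted p = 7.2e-09 and 4.49e-10). Sox2, Otx2 and Pou3f1 can also be expressed by neural progenitors. Otx2 stood at 5.09 on the naive scale in the NPC cultures, which were exposed to retinoic acid. That value does not show what neural cells in CM cultures express. All 8 cardiomyocyte markers, all 7 mesendoderm markers and all 7 endoderm markers had lower means in KO4 than in KO8, with median differences of -87.8%, -88.8% and -150% of the mean level. Of 5 mesendoderm markers tested 1 fell in KO4 and 4 rose in KO8, and these 5 summed to 497 to 894 in WT, 246 to 424 in KO4 and 1151 to 1207 in KO8. The lower sum in KO4 came from Foxa2, a forkhead factor of definitive endoderm, with means of 481 in WT and 65.2 in KO4. The median of the 5 in KO4 was 0.47, and Gsc, Mesp1 and Mixl1 had higher means in KO4 than in WT (64.6 and 38.3, 21.4 and 8.99, 77.6 and 60.5) without passing. Counts per library were found for none of the cardiomyocyte and endoderm markers, which were too high. No marker of these lists was at 0 in all libraries of the CM cultures, but Neurog2 was at 0 in both KO4 libraries, and at 1.97 or less in the others. The part of these cell types in the values of the members was not tested.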

How the data were processed

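The deposited values start from reads that the authors trimmed (Trim Galore 0.6.7), mapped to mm9 (HISAT2 2.2), summed by gene (featureCounts) and normalized (DESeq2 1.46.0). How strand and multi-mapping reads were handled is not given in the sources used here. There are 8 deposited tables, each for 1 clone at 1 stage and with 25209 genes. Their base mean is a signal made by the authors as the average of normalized counts over WT and KO libraries, scaled anew in each table. The other columns hold the authors' own log2 fold changes, standard errors, Wald statistics and p-values and were not used.

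Steps per library were read from genes with reads in 1 library and refined by least squares. Whole counts were accepted where a lattice search (replicate coefficient of variation 0.15, or 0.05 in a narrower search) held 1 solution within 1.3 half-steps of the rounding. Where more chance solutions were expected, at higher levels, the solution also had to lie in the narrower search. Genes accepted at such levels are thus selected for replicates that agree, and their p-values may be too small. Limits on chance solutions were set after seeing the data. Counts were recovered for 7453 of 19059 genes above 0 in naive cells, 14558 of 18573 in primed cells, 14294 of 19561 in NPC and 14008 of 19277 in CM cultures. Genes whose replicates disagree strongly have no solution (144, 7, 232 and 71 genes), so the spread between replicates may be understated. Whether libraries came from separate cultures is not stated, so p-values may measure technical spread only. Planned count tests were replaced by limma on recovered counts. Recovery of known counts was tested on simulated naive and CM libraries only. Their replicates were drawn with less spread than Pou5f1 showed in KO8 in NPC cultures, so that test does not cover such genes.

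limma 3.58.1 (R 4.3.3) with a variance trend was run on log2(normalized count + 1) for genes with a mean of at least 10, two-sided, with Benjamini-Hochberg adjustment over all genes tested and a threshold of 0.05. Fits of a clone against WT, and of its primed minus naive effect, used the scale of that clone's table. The other main fits and the printed counts used the scale of the table with KO4. Stages were set on 1 scale by a median ratio of base means, and scaling to the total of recovered genes was the alternative. Fold changes on this scale understate changes of low genes. Values after ± are standard errors of log2 differences. The limits on group means use that no mean is negative and that both tables of a stage share their WT libraries, whose steps kept 1 ratio between the tables within 0.49%. Other calculations used Python 3.11.15, numpy 2.4.6, pandas 2.3.3, scipy 1.17.1, numba 0.67.0 and matplotlib 3.10.9. All members are named. Of each other list at most 4 genes per stage and comparison are named, those with the smallest adjusted p or, without tests, the highest level. Of genes alike in pattern the first is named. Members and lists were chosen with earlier results of these data known.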

Additional observations from a re-analysis of the deposited data

Results flagged for a closer look

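Pou3f1 in CM cultures responded in opposite directions in the 2 clones. The difference of KO8 from KO4 was -3.17 ± 0.15 on the log2 scale (limma, adjusted p = 1.71e-06), and both KO4 libraries lay above and both KO8 libraries below the WT libraries. The comparisons of the clones with WT share the WT libraries.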

How the results depend on the processing

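Of 97 values of members under the alternatives that kept all libraries, 84 kept their direction and their side of the threshold. Without a variance trend the calls of Otx2 in primed KO4 (-0.65) and KO8 (-0.42), Utf1 (-0.75) and Pim2 (-0.52) in NPC KO4, Pou5f1 in NPC KO8 (0.89) and Pou3f1 in CM KO8 (-0.96) were lost. Without the filter on low values those of Utf1 (-0.75), Pim2 (-0.52) and Pou5f1 (0.89) were lost, and with both clones in 1 fit those of Utf1 (-0.75) and Pim2 (-0.52). Scaling to the total of the recovered genes moved the median change from naive to primed WT cells from 0.80 to -0.66 and turned 2 values near 0, Fgf5 in NPC KO8 (-0.0034) and Pou3f1 in naive KO8 (-0.018). For the change from naive to primed cells that total is biased, because the genes in it were low in naive cells by selection.

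With 1 library left out, 55 of 81 values of members kept direction and side. The log2 differences ranged from -0.93 to 0.0044 for Fgf5, -0.61 to -0.43 for Pim2, -0.54 to 0.019 for Pou5f1 and -1.08 to -0.43 for Utf1 in NPC KO4, from -0.14 to 0.14 for Fgf5, -0.017 to 0.16 for Pim2, 0.45 to 1.33 for Pou5f1 and -0.13 to 0.69 for Utf1 in NPC KO8, from -0.62 to -0.012 in primed KO4 and -0.29 to 0.32 in primed KO8 for Fgf5, from -0.16 to 0.11 in naive KO4 and -0.0054 to 0.26 in naive KO8 for Pou3f1, and from 0.80 to 1.41 for Fgf5 between primed cells and NPC cultures of WT.

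Without a trend limma called 11 genes in primed KO4, 10 in primed KO8, 276 in naive KO8, 238 in NPC KO4, 1068 in CM KO8 and 0 in NPC KO8, where 1764 had an unadjusted p under 0.05. Without the filter it called 507 in primed KO4 and 742 in primed KO8, and with both clones in 1 fit 785 in NPC KO4. With genes limited to under 0.001 other solutions expected, chosen after seeing the data and leaving fewer genes, it called 8 and 42 in naive, 402 and 261 in primed, 427 and 289 in NPC and 1584 and 706 in CM cultures for KO4 and KO8. A pseudocount of 5 gave 107 and 61 genes for the difference between primed and naive effects. Leaving out 1 library gave 3057 to 3954 genes in CM KO4, 1458 to 2485 in CM KO8, 146 to 1926 in NPC KO8, 252 to 474 in naive KO8, 1144 to 1457 in primed KO4 and 847 to 1100 in primed KO8. The main counts were 463 and 440 in naive, 1807 and 1497 in primed, 1484 and 871 in NPC and 4716 and 2254 in CM cultures for KO4 and KO8. The median percentile of the members' levels moved to 62.9 in naive, 88.6 in primed, 34.9 in NPC and 83.3 in CM cultures among genes of at least 10, and to 57.1 in NPC and 74.5 in CM cultures in the tables with KO8. Unless the alternative itself left out genes or libraries, the cause of a change was not tested. No paired analysis was possible because the recovered libraries carry no replicate numbers. Counts per library could be had only up to a level that members mostly exceed.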
